A study of Mus musculus with 16 samples.

Results

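Lymph node vessel and lymphocyte genes were followed across gastrocnemius muscle samples as a set of 9 genes: Glycam1, Ccl19, Ccl21a, Ltb, Cd79a, Cd79b, Ms4a1, Cd3e and Cd28. Members were chosen by symbol, with their earlier measured spread between arrays in view, so their levels below are descriptions. The array carried 12 probes for them among 25697 probes in all, 3 for Cd28, 2 for Cd79b and 1 for each other gene. All 9 genes were among the 10295 genes tested. RNA came from 16 B6C3F1/J mice, 1 Illumina bead array per animal. Of these, 4 were wild type given vehicle, 5 were wild type given 4b, 4 carried the N17182Q transgene and were given vehicle, and 3 carried it and were given 4b. The transgene, listed as Tg/+, encodes a truncated mutant huntingtin whose polyglutamine stretch is expanded, and it is known to be driven by a prion promoter, active in many tissues. The compound 4b inhibits histone deacetylases, and the design asks how it acts on muscle expression in each genotype. The labels name no dose, treatment time, age or sex. Nothing but the animal number in each label says how the animals were bred or handled, so p-values measure the spread between these arrays.

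Lymph nodes recruit lymphocytes through high endothelial venules, specialised vessels whose surface carries sugar-coated ligands for L-selectin on passing lymphocytes. Stromal cells and lymphatic vessels make the chemokines Ccl19 and Ccl21, which bind Ccr7 and draw T cells and dendritic cells in, and lymphotoxin from lymphocytes keeps this stroma and these vessels in their differentiated state. Lymph nodes lie in the fat beside the hindlimb muscles, and resting muscle itself holds few lymphocytes.

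For 6 of the 9 members, the 250 bases before the gene's start were at hand (RefSeq, GRCm38.p6). They were searched on both strands for the ETS core GGAAGT, the octamer ATGCAAAT, an NF-kB motif (GGG and TTTCC with any 2 bases between), an EBF motif (TCCC and GGGA with any 2 bases between) and the RUNX core TGTGGT. Over 32851 promoters of the same length the shares that held each were 19.7%, 1.60%, 1.41%, 0.779% and 14.0%. The promoters of Glycam1, Ltb, Cd79a and Cd3e are shown because these genes stand for vessel, lymphotoxin, B cell and T cell and were high on the same arrays. Capitals mark the only matches found, and no matches overlap. The Glycam1 window lies at chr15:103565082-103565331 on the minus strand, Ltb at chr17:35194257-35194506 on the plus strand, Cd79a at chr7:24897247-24897496 on the plus strand, and Cd3e at chr9:45009612-45009861 on the minus strand.
Glycam1: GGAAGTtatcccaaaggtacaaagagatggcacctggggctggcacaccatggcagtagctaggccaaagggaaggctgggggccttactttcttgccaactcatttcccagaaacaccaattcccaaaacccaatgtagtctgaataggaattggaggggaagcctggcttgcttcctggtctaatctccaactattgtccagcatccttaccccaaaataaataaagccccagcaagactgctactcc
Ltb: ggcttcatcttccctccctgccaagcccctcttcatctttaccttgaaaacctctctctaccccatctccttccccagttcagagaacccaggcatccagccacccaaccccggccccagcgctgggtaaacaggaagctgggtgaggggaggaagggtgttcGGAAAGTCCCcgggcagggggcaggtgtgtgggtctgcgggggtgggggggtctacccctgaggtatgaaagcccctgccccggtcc
Cd79a: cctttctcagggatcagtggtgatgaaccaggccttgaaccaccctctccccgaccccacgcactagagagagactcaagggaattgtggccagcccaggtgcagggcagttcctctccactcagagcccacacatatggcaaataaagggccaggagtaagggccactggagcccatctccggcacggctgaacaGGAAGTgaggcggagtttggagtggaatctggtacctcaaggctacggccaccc
Cd3e: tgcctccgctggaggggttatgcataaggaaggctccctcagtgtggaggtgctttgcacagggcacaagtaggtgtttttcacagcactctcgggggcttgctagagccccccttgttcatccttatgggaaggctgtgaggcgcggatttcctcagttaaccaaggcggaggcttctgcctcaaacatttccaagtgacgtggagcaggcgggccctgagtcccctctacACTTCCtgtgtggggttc

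Glycam1 held an ETS core at bases -250 to -245 from its start and Cd79a at -54 to -49. In Cd3e the same core lay on the other strand, at -18 to -13. Ltb held an NF-kB match on the other strand, at -87 to -78. The windows of Ccl19 (chr4:42756366-42756615, minus strand) and Ccl21a (chr4:42773992-42774241, minus strand), neighbours with 0 annotated genes between them, held none of the 5 motifs. These matches are descriptions of letters and bear on no factor's binding.

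At a detection p-value under 0.05, arrays detected 42.7% to 50.3% of their probes. Correlations between arrays ranged from 0.901 to 0.985. All 8 skeletal muscle markers on the array were detected on every array. A probe counts as detected below at a detection p under 0.01, the deposited p-value of a probe against background on that array. The lowest intensity at which a probe passed ran from 146 to 176 among arrays.

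On 6 arrays, 8 or 9 of the 9 members were detected together. These were WT vehicle replicate 4 (8 members), WT 4b replicates 1 and 3 (8 each), Tg vehicle replicate 4 (all 9), and Tg 4b replicates 1 and 2 (8 each). Among the other 10 arrays, Tg vehicle replicate 3 detected 5, WT vehicle replicate 2 and WT 4b replicate 4 detected 4 each, and the remaining 7 arrays detected 1 or 2. No group was free of such arrays. They were 1 of the 4 and 2 of the 5 wild-type animals (vehicle, then 4b), and 1 of the 4 and 2 of the 3 transgenic ones. Every member counted in choosing the 6 arrays. A member's gap between them and the other 10 therefore follows in part from that choice. With the looser detection p of 0.05, Tg vehicle replicate 3 also reached 8, and the other 9 arrays held 2 to 5. By the male gene Eif2s3y the 6 arrays came from 2 males and 4 females, and the other 10 from 6 males and 4 females. The males were WT vehicle replicates 2 and 4, WT 4b replicates 4 and 5, Tg vehicle replicates 1 to 3 and Tg 4b replicate 2. No fit included sex, so the group differences below are not adjusted for it.

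**Figure D1:**
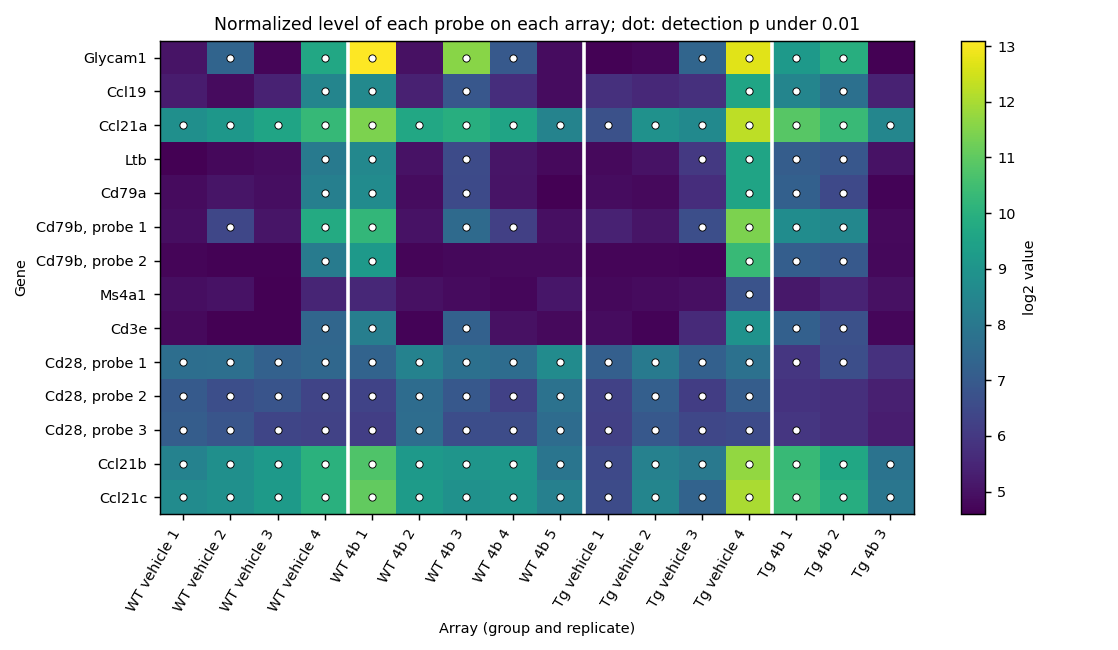
Normalized log2 value (colour scale) of every member probe and of Ccl21b and Ccl21c on each of the 16 arrays, with white lines between the 4 groups and a dot where the detection p was under 0.01. The 6 arrays with 8 or 9 members detected have dots for Glycam1, Ccl19, Ltb, Cd79a and Cd3e, while the 3 Cd28 rows follow another order.

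Glycam1, a secreted mucin of high endothelial venules that L-selectin binds once it carries sulphated sugars, varied most. Its intensities in wild-type mice given vehicle were 125, 193, 116 and 1089 in replicates 1 to 4. In wild-type mice given 4b they were 8078, 125, 2984, 223 and 114. In transgenic mice they were 119, 120.2, 269 and 7082 with vehicle and 839, 1227 and 110.3 with 4b. The 6 arrays named above held the 6 highest values, 3 arrays were detected at low intensity (193, 223 and 269), and 7 were not detected. On the normalized log2 scale, the log2 of the corrected intensity plus an offset of 16, Glycam1 ran from 4.59 to 13.10. The 6 arrays lay between 9.19 and 13.10 and the other 10 between 4.59 and 7.37. Its within-group SD of 3.34 log2 units was the largest of the 10295 genes tested, whose median SD was 0.31, and differences between the 4 groups made up 4.43% of its variance.

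The T-zone chemokine Ccl19 was detected on those 6 arrays and on 0 of the other 10. Its intensities were 131, 109, 142 and 531 in wild-type mice given vehicle and 537, 138, 219.9, 149 and 114 with 4b. Transgenic mice read 160.2, 153, 158 and 1006 with vehicle and 539, 331 and 146 with 4b. Each group thus held values near background beside at least 1 value of 531 or more. Ccl21a, which lymphatic endothelium also makes, differed in being detected on all 16 arrays. Its log2 values were 8.83, 9.08, 9.56 and 10.29 in wild-type mice given vehicle, and 11.42, 9.69, 9.91, 9.55 and 8.40 with 4b. Transgenic mice had 6.71, 8.90, 8.63 and 12.25 with vehicle and 10.88, 10.37 and 8.50 with 4b. The 6 arrays were again its 6 highest, yet by a narrow margin: WT 4b replicate 3 stood at 9.91 and WT 4b replicate 2, where Glycam1 was not detected, at 9.69. Ccl21b and Ccl21c are near-identical copies, and their probes followed Ccl21a over 16 arrays (r = 0.99 and 0.97), so the transcript behind each signal is uncertain.

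Ltb encodes lymphotoxin beta, the membrane anchor of the lymphotoxin complex that lymphocytes present to Ltbr on stroma. It was detected on the 6 arrays and on Tg vehicle replicate 3. Intensities were 108, 107, 124 and 448 in wild-type mice given vehicle and 527, 127, 194, 127 and 112 with 4b. They were 128, 132, 168 and 988 in transgenic mice given vehicle and 273, 233 and 131 with 4b. In log2 values the 6 arrays ran from 6.54 to 9.55 and the other 10 from 4.63 to 6.01, with Ltb itself counted in choosing the 6.

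Cd79a and Cd79b form the signalling pair of the B-cell receptor. Cd79a was detected on the 6 arrays alone, at log2 values of 6.47 to 9.57 against 4.62 to 5.70 on the other 10. Intensities of its partner Cd79b were 121, 146, 132 and 1154 in wild-type mice given vehicle and 1362, 127, 286, 170.5 and 116 with 4b. In transgenic mice they were 148, 135, 203 and 3092 with vehicle and 635, 521 and 122 with 4b. Cd79b was detected on 9 arrays, and these were the same 9 of 16 arrays that detected Glycam1. The other Cd79b probe was detected on 5 arrays, all of them among the 6, and did not detect WT 4b replicate 3 or the 3 arrays of low signal. Ms4a1 encodes the B-cell surface protein CD20 and was detected on Tg vehicle replicate 4 only, at an intensity of 249, with every other array between 110.3 and 158. It passed the filter for testing with 3 arrays at a detection p under 0.05, the fewest the filter allowed.

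Cd3e, a chain of the T-cell receptor complex, was detected on exactly the 6 arrays that detected Ccl19 and Cd79a. Its log2 values were 4.80, 4.61, 4.61 and 7.39 in wild-type mice given vehicle and 8.24, 4.68, 7.25, 4.98 and 4.80 with 4b. Transgenic mice had 4.87, 4.69, 5.61 and 8.92 with vehicle and 7.21, 6.71 and 4.73 with 4b. The lowest of the 6 arrays, 6.71, lay above the highest of the other 10, 5.61, with Cd3e itself counted in choosing the 6.

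Cd28, the co-stimulatory receptor of T cells, did not follow Cd3e. The probe tested for it was detected on 15 of 16 arrays, 9 of them arrays without detected Cd3e. Its log2 values were 7.65, 7.70, 7.25 and 7.44 in wild-type mice given vehicle and 7.30, 8.35, 7.73, 7.60 and 8.69 with 4b. In transgenic mice they were 7.18, 8.09, 7.21 and 7.77 with vehicle and 5.94, 6.64 and 5.81 with 4b. All 3 transgenic mice given 4b lay below all 13 others, whether Cd3e was detected (replicates 1 and 2) or not (replicate 3). Of its 6 highest arrays 2 were among the 6 arrays above, its highest value came from WT 4b replicate 5, where Cd3e was not detected, and 72.6% of its variance lay between groups. The other 2 Cd28 probes also put these 3 mice lowest, at 5.35 to 5.83 and 5.28 to 5.94 against at least 6.14 and 6.17 elsewhere.

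**Figure D2:**
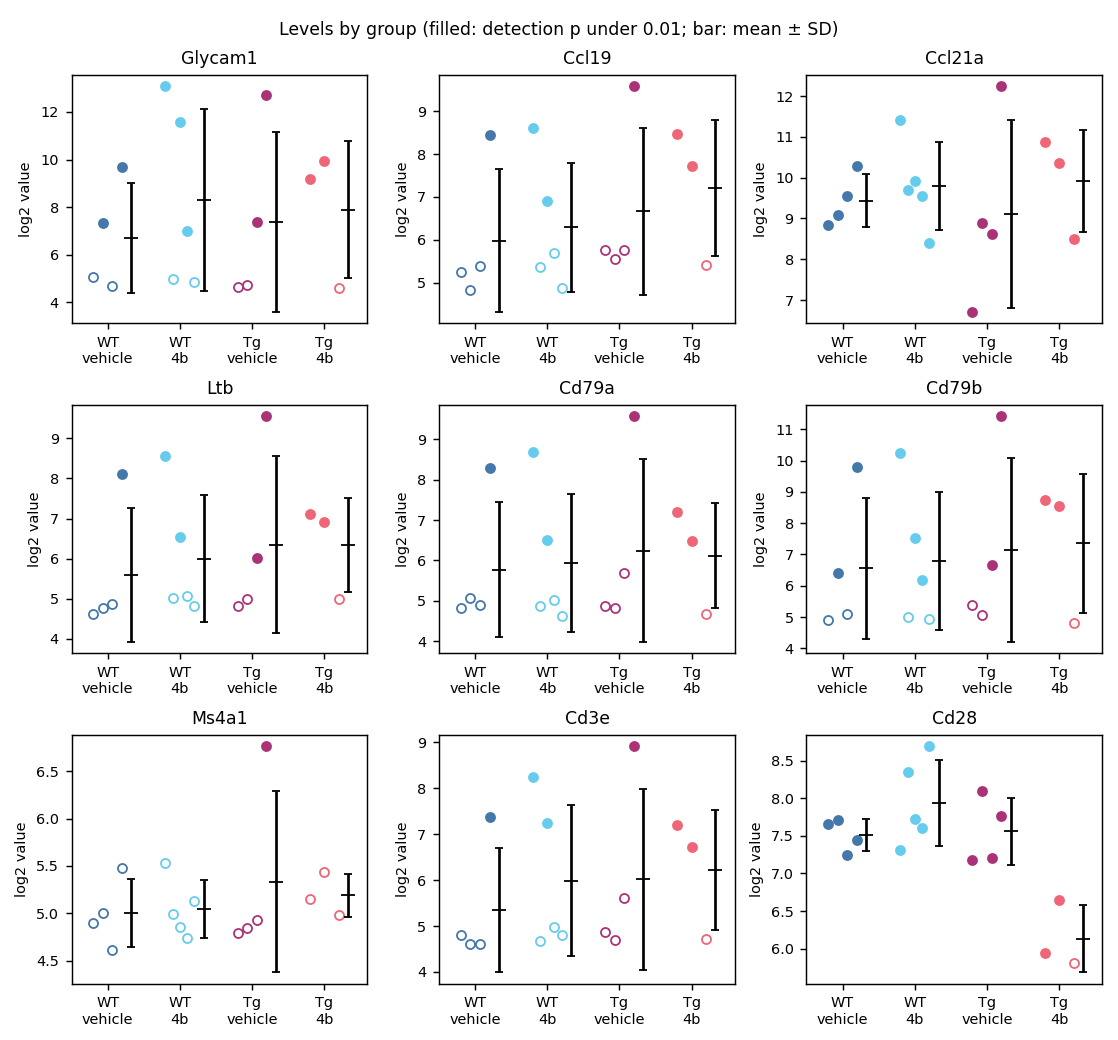
Log2 value of the tested probe of each member by group, 1 point per array (filled where the detection p was under 0.01), with mean and SD beside the points. In the panels from Glycam1 to Cd79b and for Cd3e each group holds high and low arrays, whereas for Cd28 the 3 transgenic mice given 4b (5.81 to 6.64) sit below the other arrays (7.18 to 8.69).

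The measured intensities of the members did not stand in a fixed ratio on the 6 arrays. Each gene was set against its own highest array, as a percent of background-corrected intensity. Tg vehicle replicate 4 was highest for Ccl19, Ccl21a, Ltb, Cd79a, Cd79b and Cd3e, and Glycam1 reached 87.4% there. Glycam1 was highest on WT 4b replicate 1, where the other 6 genes reached 41.9% (Cd79b) to 58.7% (Cd3e). On WT 4b replicate 3 Glycam1 stood at 36.1% and Cd3e at 24.7%, against 5.83% for Cd79b and 9.01% for Cd79a. WT vehicle replicate 4 showed the opposite order, with Glycam1 at 12.1% and Ccl19 at 46.1%, Cd79a at 41.6% and Cd3e at 34.3%. On Tg 4b replicate 1 the chemokines Ccl19 and Ccl21a stood at 46.8% and 46.9%, against 8.98% for Glycam1 and 17.2% for Cd79b. Tg 4b replicate 2 ran from 8.42% (Cd79a) to 29.2% (Ccl21a). These are single arrays without technical repeats, so the error of each percentage is not known. Whether the ratios differ beyond that error was not tested.

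**Figure D3:**
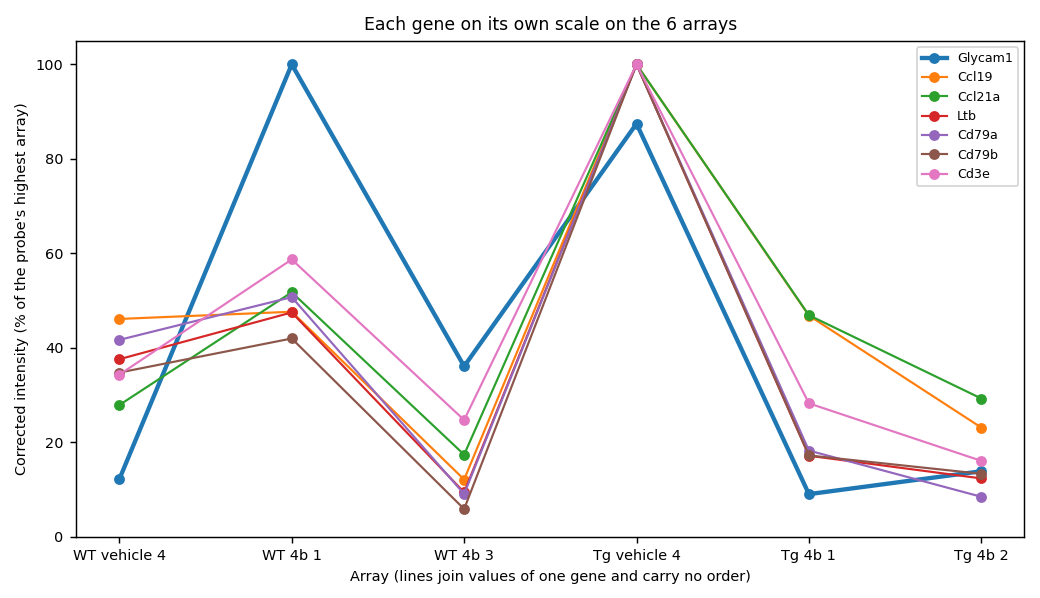
Background-corrected intensity of 7 members on the 6 arrays with most members, as a percent of each probe's highest array; lines join values of 1 gene and carry no order. Glycam1 (thick line) peaks on WT 4b replicate 1, and the other 6 genes peak on Tg vehicle replicate 4.

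Genes with the most similar pattern were sought among the other tested genes by Pearson's r of log2 values over 16 arrays. All 16 share 1 normalization and fall into the 6 arrays and the rest, so r is also given within these. For Glycam1 they were Ccr6 (r = 0.95 over 16 arrays, 0.80 within the 6 and 0.66 within the 10), Ubd, Faah, H2-M2 and Fcmr, the last at 0.94. Cd79a was closest to Gpr18 (0.99 over all, 0.99 within the 6 and 0.84 within the 10), Gimap3, Cd3g, Fcmr and Sh2d2a. Ccl21a was closest to its copies Ccl21b and Ccl21c, then Vcam1 (0.93 over all, 0.59 within the 6 and 0.93 within the 10), Napsa and Ets1. Cd3e was closest to Ccr6 (0.99 over all, 0.98 within the 6 and 0.90 within the 10), Fcho1, Cd3g, Fcmr and Cd6. Fcmr stood in 3 of these 4 lists.

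Other genes of these pathways came from lists written with earlier results in view. Among T-cell genes, Cd3d and Cd3g, which sit beside Cd3e in the genome, and the CD8 chain Cd8b1 each had the 6 arrays as their 6 highest. Cd8b1 was highest on WT vehicle replicate 4, at a log2 value of 9.69, and stood at 8.29 on Tg vehicle replicate 4. Among B-cell genes the kinase Blk also had the same 6 highest arrays, at 5.39 to 9.11 against 4.47 to 4.81. The octamer coactivator Pou2af1 had 5 of them, with WT 4b replicate 3 at 4.90, inside the range of the other 10 (4.51 to 5.11). Cd74, also among the B-cell genes of largest spread, was detected on all 16 arrays and had 3 of its 6 highest among the 6. It ran from 10.91 to 13.48 on the 6 arrays and from 8.18 to 11.99 on the other 10. In the vessel list Icam1 had 5 of its 6 highest arrays among the 6, and in the lymphotoxin list Tnfrsf1a had 3.

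Cxcl13, the chemokine that draws B cells into follicles, also departed from the order of the 6 arrays. It was detected on 10 arrays, 5 of the 6 and 5 of the other 10. Log2 values were 4.53, 5.28, 5.06 and 9.12 in wild-type mice given vehicle and 10.41, 4.82, 5.83, 6.37 and 6.13 with 4b. They were 8.94, 5.59, 8.03 and 10.63 in transgenic mice given vehicle and 10.85, 10.61 and 9.002 with 4b. All 3 transgenic mice given 4b exceeded 4 of the 5 wild-type mice given it, the exception being WT 4b replicate 1. The difference of 3.44 ± 1.29 (SE) log2 units between these groups did not pass (limma adjusted p = 0.0589).

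Several markers of vessels and leukocytes were undetected on all or nearly all arrays. The high endothelial venule genes Chst4, a sulphotransferase that completes L-selectin ligands, and Madcam1, an addressin, were detected on 0 of 16 arrays, and Fut7 on 1. The B-cell factor Pax5 was detected on 0 arrays as well. Of 6 genes common to leukocytes, Ptprc was detected on 0 arrays, Coro1a, Laptm5 and Cd52 on all 16, Cd53 on 8 and Rac2 on 4. The mean log2 value of the 6 genes was 7.80 to 9.93 on the 6 arrays and 6.27 to 7.77 on the other 10. An undetected array probe says only that no signal above background was measured.

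Levels of cell type markers were set beside the 6 arrays. The B-cell list includes the members Cd79a, Cd79b and Ms4a1, and the T-cell list Cd3e and Cd28. The gap of the T-cell list between the 6 arrays and the other 10 thus follows in part from how the 6 were chosen. That of the B-cell list follows mostly from it, because members gave most of its sum on the 6 arrays. Its other markers on the array were Cd22 and Pax5. Cd22 was detected on 3 of the 6 arrays and 0 of the other 10, at log2 values of 5.60 to 8.48 against 4.59 to 5.31. Pax5 was detected on none. The summed corrected intensity of the 5 B-cell markers on the array was 310 to 4422 on the 6 arrays and 53.5 to 154 on the other 10, and that of 8 T-cell markers 603 to 3991 and 141 to 423. Over 7 adipocyte markers the mean log2 value was 9.93 on WT vehicle replicate 4, 9.92 and 9.25 on WT 4b replicates 1 and 3, 8.46 on Tg vehicle replicate 4 and 8.28 on Tg 4b replicate 1. It was 6.67 on Tg 4b replicate 2 and 6.62 to 7.96 on the other 10 arrays. By this mean, adipocyte markers lay above that range on 5 of the 6 arrays. Their summed corrected intensity was 3906 to 26845 on the other 10 arrays. It lay above that on WT vehicle replicate 4 (36399) and WT 4b replicates 1 and 3 (38249 and 27389). Tg vehicle replicate 4 (18957) and Tg 4b replicate 1 (11658) lay inside it. Adipoq ran from 7.91 to 13.39 on the 6 and from 8.75 to 10.62 on the 10, and Fabp4 was not detected on any. Myeloid markers overlapped, with means of 8.09 to 8.83 against 6.55 to 8.98, and so did muscle markers, at 14.50 to 14.95 against 14.49 to 14.98. In whole muscle, more cells of a type and more RNA per cell cannot be told apart, and the tissue that gave the lymphocyte, vessel and adipocyte signal on these arrays was not tested.

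**Figure D4:**
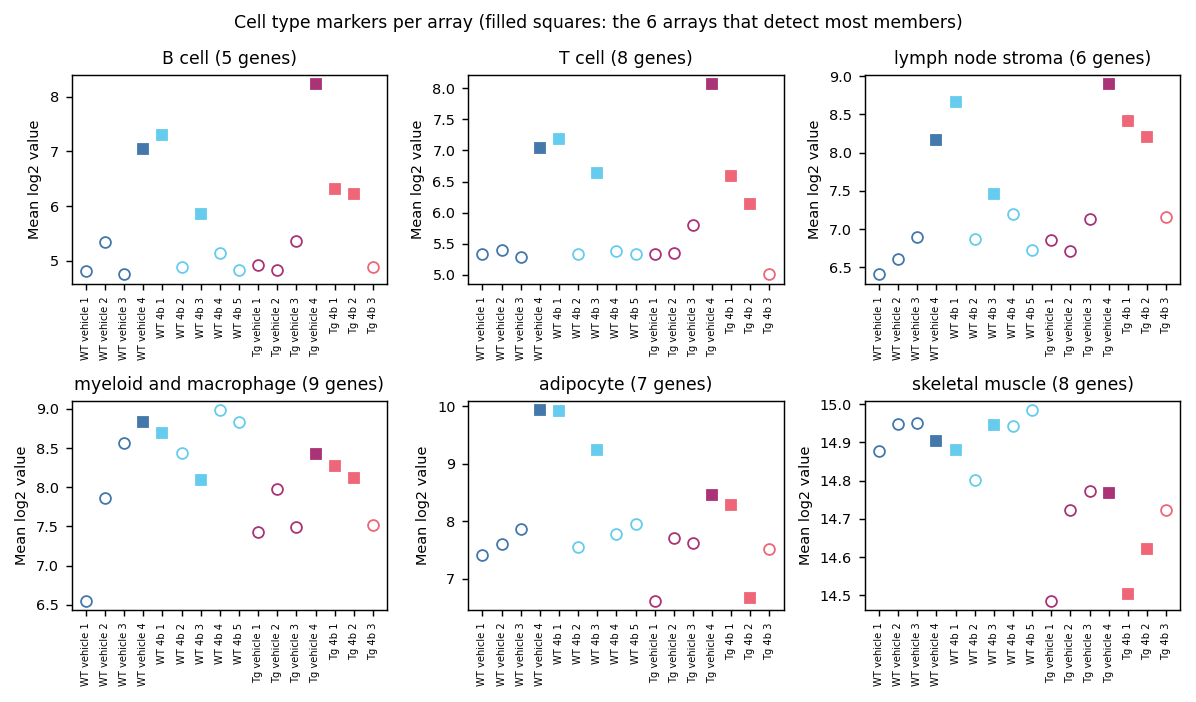
Mean log2 value of each cell type's markers on every array, coloured by group, with filled squares for the 6 arrays on which most members were detected. B-cell, T-cell and stroma panels put the 6 squares highest, the adipocyte panel puts 5 of them highest, and in the myeloid and muscle panels squares and circles mix. The B-cell, T-cell and stroma lists include members whose detection set the choice of the 6 arrays. In the stroma list these are Ccl19 and Ccl21a, so its gap follows in part from that choice. Its other markers overlapped between the 6 arrays and the other 10. Pdpn ran from 9.91 to 10.79 against 9.44 to 11.18, and Cxcl13 was detected on 5 of the 6 and 5 of the 10. Tnfsf11 was detected on 1 array and Madcam1 on 0.

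By group, Glycam1 averaged 6.69 ± 2.32 (SD, n = 4) in wild-type mice given vehicle, 7.37 ± 3.77 (n = 4) in transgenic mice given vehicle, 7.90 ± 2.89 (n = 3) in transgenic mice given 4b and 8.30 ± 3.82 (n = 5) in wild-type mice given 4b. Every step in this order was smaller than the spread within the groups. Ccl19 averaged 5.98 ± 1.66, 6.29 ± 1.50, 6.67 ± 1.95 and 7.20 ± 1.58 in wild-type vehicle, wild-type 4b, transgenic vehicle and transgenic 4b mice. In the same order Cd79b averaged 6.55 ± 2.26, 6.78 ± 2.20, 7.14 ± 2.94 and 7.35 ± 2.22, and Cd3e 5.35 ± 1.36, 5.99 ± 1.64, 6.02 ± 1.97 and 6.22 ± 1.31. For these 3 genes, too, neighbouring groups differed by less than their SDs. Ccl21a, Ltb and Cd79a spanned group means of 9.12 to 9.91, 5.60 to 6.35 and 5.77 to 6.24, again within the spread, and Ms4a1 lay at 5.00 to 5.33.

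The transgene's effect under vehicle was asked first. By limma over all genes 0 of the 9 members passed an adjusted p under 0.05, where 5.3% of all tested genes were called (2.39% higher and 2.91% lower). At an unadjusted p under 0.05 there were 0 members too, against 21.3% of all genes. Glycam1 differed by 0.67 ± 2.11 (SE) log2 units, with a 95% interval from -3.82 to 5.17. Ccl21a was at -0.32 (interval -2.27 to 1.63) and Cd3e at 0.67 (interval -1.51 to 2.85). In the comparison of 4b with vehicle in wild-type mice 0 members were called, against 0% of all genes, and at an unadjusted p under 0.05 again 0 members, against 2.67%. Glycam1 differed there by 1.61 (interval -2.66 to 5.87). In exact permutation tests, 36 in all over 9 members and 4 comparisons, 0 passed after Benjamini-Hochberg adjustment, but with a smallest possible p of 0.00794 to 0.0286 no member could have passed alone. The intervals of Glycam1 span many-fold changes in both directions, so these data bound its group differences only loosely.

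For 4b against vehicle in transgenic mice 0 members were called, where 0.00971% of all genes were. Cd28 had the lowest unadjusted p of the members there, 0.000464, at a difference of -1.43 ± 0.32 (SE) and an adjusted p of 0.138 by limma. It was called when Tg vehicle replicate 1 was left out (-1.56, limma adjusted p = 0.0366) and with array weights (-1.03, 0.0266). It was the only member with an unadjusted p under 0.05, where 14.7% of all genes had one. The other 8 members ranged from -0.14 (Ms4a1) to 0.79 (Ccl21a).

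Transgenic against wild-type mice, both given 4b, gave the only call. Cd28 averaged 6.13 ± 0.45 (SD, n = 3) in transgenic and 7.93 ± 0.57 (SD, n = 5) in wild-type mice. It was lower by -1.80 ± 0.31 (SE) log2 units, to 0.287 of the wild-type level, with a 95% interval from -2.46 to -1.15 (limma adjusted p = 0.00109). In this comparison 28.3% of all genes were called and 12.8% were called lower, so 1 of 9 members is near the background share. The other Cd28 probes, each fitted as a row of its own, gave -1.34 (limma adjusted p = 0.012) and -1.26 (0.0103). In transgenic mice given 4b all Cd28 signals were near background. The tested probe had intensities of 178, 211 and 161 there and was detected on 2 of 3 arrays. The other probes were detected on 0 and 1 of these 3, so the size of the fold is uncertain. An exact two-sided permutation test of Cd28 gave p = 0.0179, the smallest that 56 divisions allow, and 0.514 after adjustment over the 36 tests, where no member could pass alone. On the authors' deposited values the difference was smaller, -1.02, and still called (adjusted p = 0.00234). Without the 6 arrays it was -2.40 with 1 transgenic array left, assumed to vary like the other groups, and was not called (limma adjusted p = 0.138). At an unadjusted p under 0.05 Cd28 was again the only member, against 40% of all genes. The remaining members ranged from -0.40 (Glycam1) to 0.91 (Ccl19), each with an interval across 0.

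The test of whether 4b acted differently in the 2 genotypes called 0 members, against 0% of all genes. Cd28 had an interaction of -1.85 ± 0.43 (SE) log2 units (unadjusted p = 0.000591, limma adjusted p = 0.422), and 0 other members had an unadjusted p under 0.05, as 10.1% of all genes did. The comparisons share groups, so their values are not independent of each other.

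**Figure D5:**
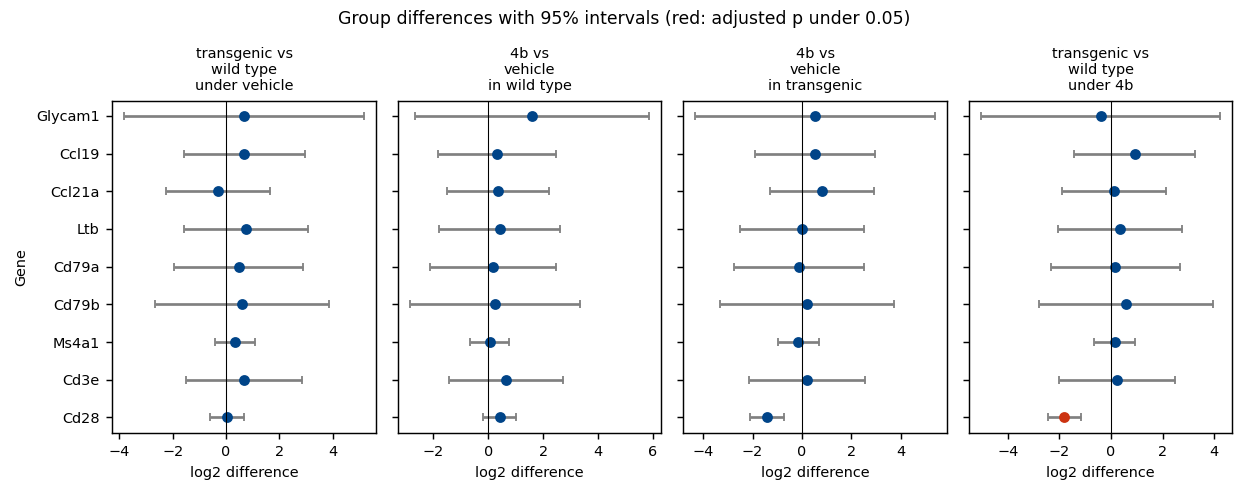
Difference in log2 value (points) with its 95% interval from the fit over all genes (bars) for the 9 members in 4 comparisons, in red where the adjusted p was under 0.05. Intervals of the other 8 members cross 0 in every panel, and the only red point is Cd28 at -1.80 between genotypes under 4b.

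The pathway lists are read against the shares called over all genes. Between the genotypes given vehicle, 0 of 12 tested B-cell genes, 0 of 14 T-cell genes, 0 of 9 homeostatic chemokine genes and 0 of 9 lymphotoxin genes were called, and 1 of 8 high endothelial venule and L-selectin ligand genes was lower, where 5.3% of all genes were called. Their median differences were 0.21, 0.43, -0.19, 0.13 and -0.09 log2 units, against 0.01 over all genes. The called gene was St3gal6, a sialyltransferase that is also expressed outside lymph nodes, at -0.73 ± 0.14 (SE; limma adjusted p = 0.0109). Its values were 12.06 or more on every array. The call held under 26 of 27 alternatives, among them omission of the 6 arrays (-0.80), and was lost when only these groups were fitted. Without the 6 arrays 1 T-cell gene was called lower, Thy1 at -2.40 (limma adjusted p = 0.0384), against -1.80 (0.12) with all arrays.

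Under 4b the same lists gave 0 of 12, 1 of 14, 1 of 9, 1 of 9 and 5 of 8 called between genotypes, with medians of -0.16, 0.02, 0.11, 0.42 and -0.23 against 0.00 over all genes. Over all genes 28.3% were called, 15.5% higher and 12.8% lower, so the counts of all lists but the last, the high endothelial venule genes, lie below that share. Thy1, a surface glycoprotein of T cells that fibroblasts and neurons also make, was lower by -3.02 ± 0.67 (SE; limma adjusted p = 0.0048). Its wild-type 4b values were 10.74, 10.40, 10.84, 10.34 and 9.94 and its transgenic 4b values 7.96, 7.20 and 7.15, and Cd3e was detected on replicates 1 and 3 of the former and 1 and 2 of the latter. Map3k14, the NIK kinase downstream of Ltbr, was higher by 0.93 ± 0.29 (limma adjusted p = 0.029), a call lost under 5 of 27 alternatives: without WT 4b replicate 2 or 4, without Tg 4b replicate 1 or 2, and without the 6 arrays. Cxcl12, a chemokine of many stromal cells, was lower by -0.85 ± 0.29 (limma adjusted p = 0.0415), a call lost under 11 of 27 alternatives, among them median scaling (-0.55, adjusted p = 0.16).

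Of the 5 vessel genes called under 4b, 2 were higher and 3 lower. The atypical chemokine receptor Ackr1 of venules was higher by 1.17 ± 0.23 (limma adjusted p = 0.00256). Its values were 9.36, 9.02 and 8.25 in transgenic mice given 4b and 7.17 to 8.10 in wild-type mice given 4b, and the 2 highest came from arrays with most members detected. Selp, the endothelial P-selectin, was higher by 1.56 ± 0.44 (adjusted p = 0.0159), from values of 8.44, 7.68 and 5.96 against 5.22 to 6.47. Its call was lost without Tg 4b replicate 1 or replicate 2, and it stood at -0.09 without the 6 arrays. Cd34, a sialomucin of endothelium, was lower by -1.51 ± 0.26 (adjusted p = 0.00121), from 6.69, 6.17 and 6.64 against 7.17 to 8.44. Podxl (-0.96) and St3gal6 (-0.57) were the other lower genes. Podxl was not called without Tg 4b replicate 1, and St3gal6 without Tg 4b replicate 2. St3gal6 was also not called with median scaling (-0.32, adjusted p = 0.164). Without the 6 arrays 1 transgenic array given 4b was left and 4 genes were called in all, so the absence of list genes among them says nothing about stability. The differences of Thy1 (-3.08) and Cd34 (-1.58) were then as large as with all arrays, and that of Ackr1 was smaller (0.34). In the 4b comparisons within each genotype and in the interaction, 0 genes of these lists were called by limma.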

How the data were processed

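Probe intensities were deposited on a linear scale and, per the file headers, without normalization, for 16 arrays of total RNA. The deposited detection p-value per probe and array was used as given, and the sources used here do not give its calculation. The authors' deposited log2 values, a separate table, served as an alternative; they gave the same results as quantile normalization without background correction.

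Intensities were corrected with limma 3.58.1 (R 4.3.3) by normexp (offset 16, background inferred through the detection p-values), then log2-transformed and quantile-normalized. The offset compresses changes of dim probes, and quantile normalization hides a shift of most genes. Probes with a detection p under 0.05 on at least 3 arrays were kept (13706 of 25697), and each gene was represented by its brightest probe on average, which left 10295. One limma fit with 4 group means covered all arrays (12 residual and 3.09 prior degrees of freedom), two-sided, with Benjamini-Hochberg adjustment over all genes and a call at an adjusted p under 0.05. It was tested on simulated data. Precision rests on the number of arrays.

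Groups follow the labels' genotype and treatment. The members and lists were chosen with earlier results of these data known. Genes named are the 9 members, the 5 tested genes most correlated with each of 4 members, and per list up to 3 called genes and the 3 of largest spread. Podxl and the cell type markers Chst4, Madcam1, Fut7, Pax5, Ptprc, Coro1a, Laptm5, Cd52, Cd53, Rac2, Adipoq, Fabp4 and Eif2s3y fall outside this rule and were chosen after their values were seen. Cd28 stands outside the 4 members used for that search. Alternatives covered normalization, background, offset, filter, probe choice, the samples fitted, array weights, order of deposit, single omitted arrays, the exact permutation test and, chosen after seeing the data, omission of the arrays with at least 7 members detected. Scan dates and slides were not used here. Animals are numbered singly, so replicate numbers pair none. Figures used matplotlib 3.10.9.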

Additional observations from a re-analysis of the deposited data

Results flagged for a closer look

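In groups of 4 or 5 arrays, 1 array stood far from the others by Dixon's test for 22 of 93 combinations of probe and group, over 31 probes, where chance alone gives about 1 in 20. The probes are members chosen with their spread in view and list genes named for a call or a large spread, so that rate is no yardstick for them. All 22 lay on the high side, on WT vehicle replicate 4, WT 4b replicate 1 or Tg vehicle replicate 4. These genes move together across arrays, so the 22 are not independent. Values are normalized log2.

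On WT vehicle replicate 4 the members were Ccl19 (8.45), Ltb (8.11), Cd79a (8.28), the untested Cd79b probe (8.12) and Cd3e (7.39). The list genes there were Blk (7.67), Cd3d (9.13), Cd3g (8.63), Cd8b1 (9.69), Cxcl13 (9.12) and Pou2af1 (7.09). On WT 4b replicate 1 they were the untested Cd79b probe (9.18), Cxcl13 (10.41), Pou2af1 (8.47) and the B-cell survival ligand Tnfsf13b (8.09). On Tg vehicle replicate 4 they were Ccl19 (9.59), the untested Cd79b probe (10.31), Ms4a1 (6.76), Blk (9.11), Cd8b1 (8.29), Pou2af1 (9.41) and Tnfsf13b (8.18). Glycam1 was not among them.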

How the results depend on the processing

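No paired analysis was possible because each animal has its own number and replicate numbers are only the order of deposit. For the 8 members other than Cd28, 40 differences were recomputed under the alternatives, which gave 1099 values. Of these 125 changed sign, in 37 of the 40 differences, and 0 were called, with a lowest adjusted p of 0.0935. The count of members called for 4b in transgenic mice was 1 (Cd28) with array weights and 0 to 1 when single arrays were omitted, against 0. Between genotypes under 4b the count fell from 1 to 0 without the 6 arrays with most members and by the exact permutation test (Cd28 adjusted p = 0.514 over 36 tests). Neither speaks to stability: the first leaves 1 transgenic array given 4b, with Cd28 at -2.40, and in the second no member could pass alone. Cd28 stayed called under the other 26 of 28 alternatives. The authors' deposited values and no background correction gave Cd28 as -0.76 for 4b in transgenic mice and -1.06 for the interaction, and the interaction without the 6 arrays was -2.36.

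Over all genes, calls ranged from 124 (only the groups compared) to 880 (array weights) for genotype under vehicle. For 4b in transgenic mice they ranged from 0 to 1778, being 325 without Tg vehicle replicate 1, 421 without Tg 4b replicate 3 and 1778 with array weights. Between genotypes under 4b they ranged from 4 (without the 6 arrays) to 4768 (array weights), and for the interaction from 0 to 89. Median scaling moved the median of all genes to 0.12 and 0.11 for the genotype comparisons, with 528 higher and 199 lower under vehicle (246 and 300 with quantile normalization) and 2372 higher and 846 lower under 4b (1597 and 1314 with quantile normalization). Causes were not tested. Of the 5 genes most like each member, the authors' values kept 3 for Glycam1 and 4 each for Cd79a, Ccl21a and Cd3e.

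Limits are the 3 to 5 animals per group, signals near background for Ms4a1 and for most members on 10 arrays, and 1 array per animal.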

Other observations

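Cd28 was also set against all other tested genes, a search made after its values were seen. The most similar were Rp9 (r = 0.88 over 16 arrays, 0.93 within the 6 arrays with most members and 0.90 within the other 10), Lsm3, Glrx5, Ccdc90b and Tsen34. None of the genes most like Cd3e was among them. Antigen presentation markers, 8 on the array, averaged 7.58 to 9.52 on the 6 arrays and 6.12 to 8.56 on the other 10. Erythrocyte markers ran from 7.04 to 9.50 on the 6 arrays and from 8.06 to 11.54 on the 10, with the highest value on Tg 4b replicate 3, the transgenic 4b array with the fewest members detected. Proliferation markers were detected on at most 2 of 3 per array on the 6 arrays and on 0 of 3 on the 10.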
